A study of Saccharomyces cerevisiae with 8 samples.

Results

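The genes described here serve the last branch of leucine synthesis and the transamination of the branched-chain amino acids in budding yeast. They are LEU4, LEU9, LEU1, LEU2, the carrier gene OAC1, the aminotransferase genes BAT1 and BAT2, and the regulator gene LEU3. They were chosen by gene symbol, and all 8 were found among 5449 Saccharomyces cerevisiae genes on the array, each with 1 probe set. Total RNA was measured on 8 Affymetrix Yeast 2.0 arrays, 1 for each of 4 separate cultures of a CDC34tm strain and 4 of a wild type (WT) described as isogenic. Cdc34 is the ubiquitin-conjugating enzyme of the SCF ubiquitin ligases.

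The CDC34tm strain is RRC85, MATα, with CDC34tm(NatR), in which NatR is a nourseothricin resistance gene. The WT strain is DBY2059, MATα, leu2-3, 112. The labels of all 8 samples further name a partial disruption at the 3' end of PST1, and the same leu2-3, 112 allele, among the variables of the experiment. They do not say whether RRC85 carries the leu2 allele, which in the design text stands with DBY2059 alone. That allele makes no active Leu2 enzyme, so a strain that carries it needs leucine from the medium. The cultures of both strains were kept at 30 °C, and their defined medium held 25.2 mg/L leucine, 0.25% glutamine and 2% dextrose. Each genotype is represented by 1 strain, so CDC34tm, the resistance gene, the PST1 disruption and any difference at LEU2 cannot be told apart.

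Yeast builds leucine from the valine precursor α-ketoisovalerate. Isopropylmalate synthase (Leu4 and Leu9) adds an acetyl group, isopropylmalate isomerase (Leu1) and β-isopropylmalate dehydrogenase (Leu2) convert the product to α-ketoisocaproate, and a branched-chain aminotransferase (Bat1 in mitochondria, Bat2 in the cytosol) adds the amino group. Oac1 carries oxaloacetate and isopropylmalate across the inner mitochondrial membrane, which links the mitochondrial first step to the cytosolic steps. Leu3 is a zinc cluster factor that activates genes of the branch when it binds isopropylmalate, and leucine inhibits the synthase that makes this metabolite.

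Over all tested probe sets, log2 values correlated at 0.993 to 0.997 between CDC34tm arrays, 0.98 to 0.995 between WT arrays and 0.955 to 0.975 across the strains. WT replicates 1 and 4 stood apart from WT replicates 2 and 3 in 18 heat shock genes, whose median log2(signal + 16) was 12.9 on both of the former, 11.5 and 11.4 on the latter and 10.9 to 11.1 on the CDC34tm arrays. For many genes the difference is therefore also given against WT replicates 2 and 3 alone and against WT replicates 1 and 4 alone. The 4 markers of MATα cells read 5566 to 13540 on all arrays, and the 6 markers of MATa cells 32.3 to 302. The ratio of the 3' to the 5' ACT1 control probe set, a sign of RNA integrity, was 1.26 to 1.32 in CDC34tm and 1.25 to 1.38 in WT. CDC34 itself, had a log2 fold change of 0.01 (95% interval -0.16 to 0.19). The array values are signals scaled to a common level on each array. Such scaling hides any shift of total mRNA, and fewer expressing cells cannot be told apart from less mRNA per cell.

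The comparison of the strains asks how the CDC34tm strain differs from WT at the level of mRNA. In the leucine genes the difference was uneven: LEU1, OAC1 and LEU2 fell 3.00-fold, 2.67-fold and 2.26-fold, BAT1 fell 1.67-fold and LEU4 1.16-fold, BAT2 rose 1.39-fold, and LEU9 and LEU3 did not pass the test. Of the 8 genes, 5 were thus lower and 1 higher in CDC34tm, at an adjusted p under 0.05 from limma over all 5437 probe sets tested. Among all those probe sets 19.7% were lower and 18.9% higher, so that 38.6% were called. At least 1.5-fold lower were 4 of the 8 genes, against 6.51% of all probe sets tested. The median log2 fold change was -0.48 over the 8 genes and 0.00 over all probe sets. No overlap between the strains was seen for 6 of the 8 genes, 5 of them lower in CDC34tm. Among all probe sets 39.5% had no overlap, and 20.5% had none with CDC34tm lower.

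**Figure D1:**
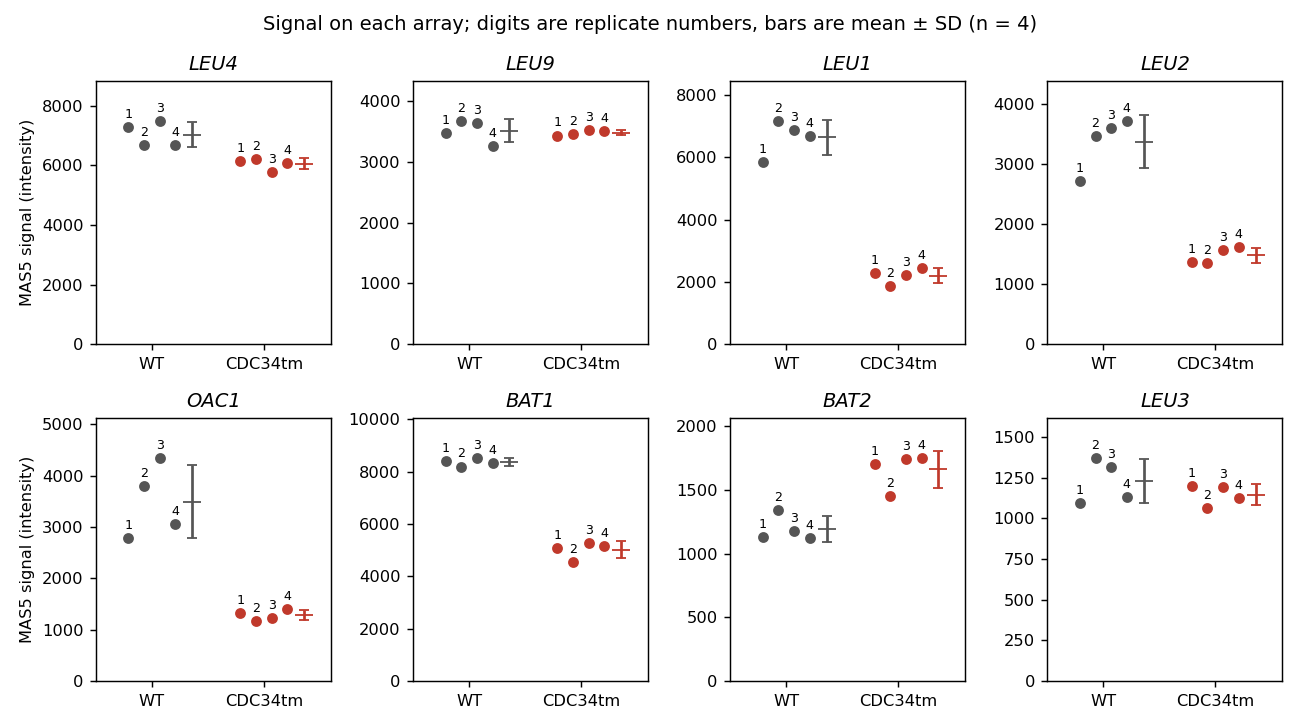
MAS5 signal (intensity, linear axis from 0) of the 8 genes on each of the 4 WT and 4 CDC34tm arrays, with the replicate number above each point and the mean ± SD beside the points. LEU1, LEU2, OAC1, BAT1 and LEU4 lie lower on every CDC34tm array than on any WT array, BAT2 lies higher, and LEU9 and LEU3 overlap.

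The 2 genes for the first step of the branch differed in their response. LEU4, which encodes the main isopropylmalate synthase, read 6158, 6216, 5789 and 6077 on CDC34tm replicates 1 to 4, and 7282, 6693, 7481 and 6674 on WT replicates 1 to 4. Every CDC34tm array was below every WT array, but by a narrow margin. Mean signals were 6060.0 ± 189 for CDC34tm and 7032.5 ± 411 for WT (SD over 4 arrays), a log2 fold change of -0.21 ± 0.05 (SE, limma adjusted p = 0.0095). LEU9, the gene of the second isopropylmalate synthase, read 3433, 3464, 3522 and 3509 on the CDC34tm arrays and 3480.0, 3668, 3630.5 and 3254 on the WT arrays. The CDC34tm values lay inside the WT range. The log2 fold change of LEU9 was -0.01, with a 95% interval of -0.13 to 0.11 (limma adjusted p = 0.908).

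The strain difference of LEU4 was compared directly with that of LEU9 through the difference of their log2 values within each array. Relative to the WT mean, that difference was -0.16, -0.16, -0.29 and -0.21 on the CDC34tm arrays and 0.06, -0.14, 0.04 and 0.03 on the WT arrays. The strains did not overlap, and WT replicate 2 lay nearest to the CDC34tm arrays. The mean difference was -0.20 (two-sided exact permutation test, p = 0.0286 and adjusted p = 0.0286 over 3 gene pairs, lower in 4 of 4 CDC34tm arrays). This p is the smallest that 4 arrays against 4 can give. The adjusted p was 0.0571 after quantile normalization, where the difference was -0.18, and it was also 0.0571 when any 1 of the 4 CDC34tm arrays was left out.

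The largest fall among the 8 genes was that of LEU1, which encodes the isopropylmalate isomerase, the second enzyme of the branch. It read 2289.9, 1859.8, 2226 and 2442 on CDC34tm replicates 1 to 4 against 5836, 7161, 6881 and 6682 on WT replicates 1 to 4. All CDC34tm values were well below all WT values. Mean signals were 2204 ± 247 for CDC34tm and 6640.0 ± 571 for WT (SD over 4 arrays), a log2 fold change of -1.59 ± 0.09 (SE, limma adjusted p = 4.31e-06). In order of log2 fold change it ranked 42nd from the lowest of the 5437 probe sets. The fall was -1.67 against WT replicates 2 and 3 alone and -1.50 against WT replicates 1 and 4 alone.

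LEU2, the gene of the third enzyme, β-isopropylmalate dehydrogenase, is also the gene at which the strains may differ. It read 1372, 1358, 1569 and 1611 on the CDC34tm arrays and 2719, 3461, 3596 and 3711 on the WT arrays, lowest in WT on replicate 1. The log2 fold change was -1.18 ± 0.11 (SE, limma adjusted p = 5.65e-05), and the groups did not overlap. LEU2 mRNA was thus clearly measured in both strains, at least 100.1 times the background of the array. The probe set cannot show whether a strain carries the leu2 allele. Among the protein-coding neighbours of LEU2 on chromosome III, chosen after the values were seen, NFS1 and DCC1 were not called, with -0.12 and 0.17 on the log2 scale (limma adjusted p = 0.182 and 0.0721). BUD3, the gene after DCC1, rose by 0.49 (adjusted p = 0.00537). On the other side of LEU2, YCL021W-A was not called, at 0.06 (limma adjusted p = 0.782). The genes between it and LEU2, YCL019W and YCL020W, had no value.

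LEU1 fell further than LEU2. The within-array difference of their log2 values, relative to the WT mean, was -0.25, -0.53, -0.48 and -0.39 on the CDC34tm arrays and 0.12, 0.06, -0.05 and -0.13 on the WT arrays. The mean difference was -0.41 (two-sided exact permutation test, p = 0.0286 and adjusted p = 0.0286 over 3 gene pairs, the smallest the design can give, lower in 4 of 4 CDC34tm arrays). Between the probe sets of these consecutive steps the fold thus differed by 1.33-fold. LEU2 is also the gene at which the strains may differ, and whether that has a part in this gap was not tested. Without WT replicate 1, the array on which LEU2 was lowest, the difference was -0.37 (adjusted p = 0.0571).

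OAC1, the carrier gene, had the second largest fall, a log2 fold change of -1.42 ± 0.13 (SE, limma adjusted p = 6.4e-05). The mean was 1282 ± 102 for CDC34tm and 3496 ± 714 for WT (SD over 4 arrays). It read 1322, 1169, 1233 and 1402 on the CDC34tm arrays and 2776, 3803, 4346 and 3059 on the WT arrays. It was the most variable of the 8 genes among the WT cultures, and it was higher on WT replicates 2 and 3 than on WT replicates 1 and 4. The fall therefore depended on the WT cultures used, at -1.66 against WT replicates 2 and 3 alone and -1.18 against WT replicates 1 and 4 alone. The adjusted p was at most 4.6e-06 in both. Whether the heat shock levels that separate these WT cultures have a part in the OAC1 level was not tested.

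The aminotransferase genes went in opposite directions. BAT1, which encodes the mitochondrial enzyme, read 5088, 4527, 5278 and 5149 on the CDC34tm arrays and 8419, 8191, 8521 and 8342 on the WT arrays. The WT cultures agreed closely, with an SD of 139 around a mean of 8368, also across the cultures that differed in heat shock genes. BAT1 fell by 0.74 on the log2 scale (limma adjusted p = 1.33e-05), with -0.74 against WT replicates 2 and 3 alone and again -0.74 against WT replicates 1 and 4 alone.

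BAT2, which encodes the cytosolic enzyme, read 1704, 1450.0, 1742 and 1753 on the CDC34tm arrays and 1129.8, 1340.4, 1176 and 1123 on the WT arrays. Every CDC34tm array was above every WT array, with replicate 2 the lowest of the CDC34tm arrays and the highest of the WT arrays. The log2 fold change was 0.47 ± 0.09 (SE, limma adjusted p = 0.00243), 0.40 against WT replicates 2 and 3 alone and 0.55 against WT replicates 1 and 4 alone.

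BAT1 was also set relative to BAT2 within each array, which adds the fall of BAT1 to the rise of BAT2. The difference of the log2 values, relative to the WT mean, was -1.23, -1.17, -1.21 and -1.25 on the CDC34tm arrays and 0.08, -0.20, 0.04 and 0.08 on the WT arrays. The spread among CDC34tm arrays was small, with an SD of 0.0365 against 0.135 in WT. The mean shift of -1.21 is a 2.32-fold change of the ratio of BAT1 to BAT2 signal (two-sided exact permutation test, p = 0.0286 and adjusted p = 0.0286 over 3 gene pairs, the smallest the design can give, lower in 4 of 4 CDC34tm arrays). The scaling of an array has almost no part in this ratio, since both genes were read on the same array. BAT1 was lower and BAT2 higher on every CDC34tm array, so the full separation and the p-value followed from those results. The ratio gives only the size of the unequal change.

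**Figure D2:**
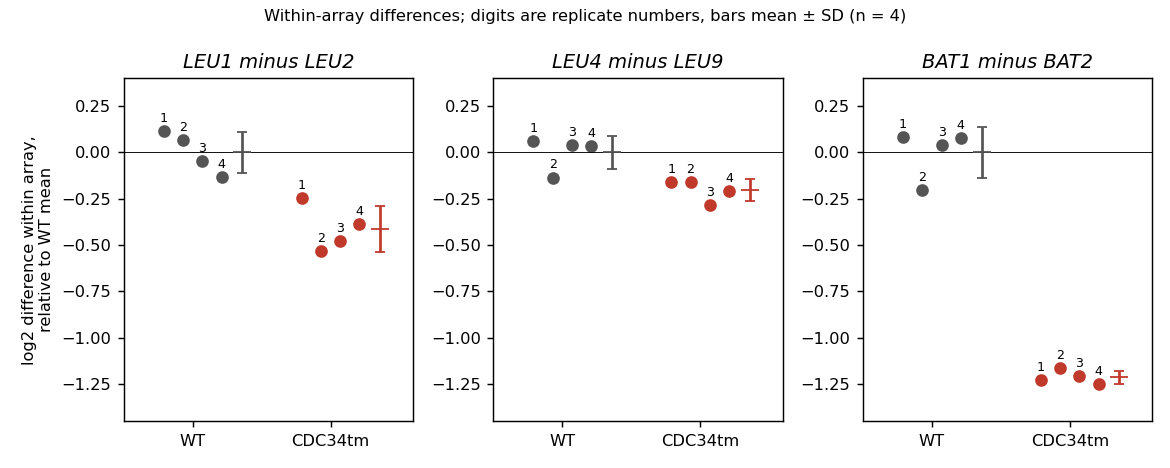
Difference of log2(signal + 16) between the genes of each pair within an array, relative to the mean of the WT arrays, for 4 WT and 4 CDC34tm arrays, with the mean ± SD beside the points. The shift in CDC34tm is -1.21 for BAT1 minus BAT2, -0.41 for LEU1 minus LEU2 and -0.20 for LEU4 minus LEU9.

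LEU3, the gene of the regulator, did not pass the test. It read 1202, 1063, 1191 and 1126 on the CDC34tm arrays and 1095, 1373, 1315 and 1135 on the WT arrays. The groups overlapped, and WT replicates 2 and 3 were above all other arrays. The log2 fold change was -0.10, with a 95% interval of -0.29 to 0.10 (limma adjusted p = 0.414). It depended on the WT cultures: against WT replicates 2 and 3 alone it was -0.23 and passed the threshold (adjusted p = 0.0379), but against WT replicates 1 and 4 alone it was 0.04 (adjusted p = 0.712). The array measures LEU3 mRNA and not the activity of the protein, which depends on isopropylmalate.

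**Figure D3:**
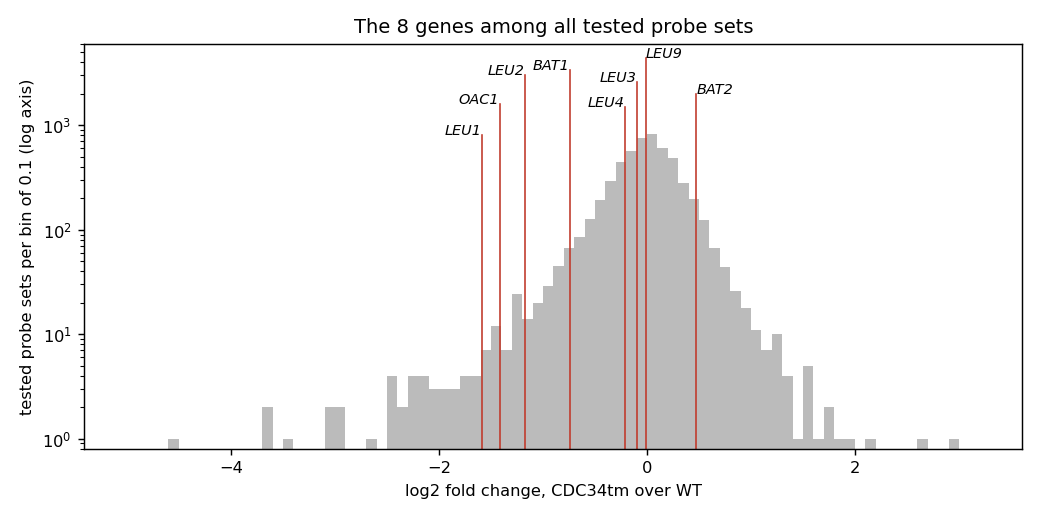
Number of tested probe sets (log axis) by log2 fold change of CDC34tm over WT in bins of width 0.1, with red lines at the 8 genes. LEU1 at -1.59, OAC1 at -1.42 and LEU2 at -1.18 lie in the lower tail, while LEU9 at -0.01 and LEU3 at -0.10 lie near the centre.

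The profiles of LEU1, OAC1 and LEU2 over the 8 arrays were compared with those of all other tested genes. Each gene was centred on its own mean, and likeness was measured as the root mean square difference of log2 values over the 8 arrays. By this measure OAC1 ranked 4th of 5391 other genes in likeness to LEU1, at 0.16, and LEU2 ranked 14th at 0.23. LEU1 ranked 3rd and LEU2 8th in likeness to OAC1. Seen from LEU2, OAC1 ranked 28th and LEU1 50th. The other members were less alike: from LEU1, BAT1 ranked 132nd, LEU4 1267th, LEU3 1777th, LEU9 2463rd and BAT2 4954th. From BAT1, LEU2 ranked 768th, OAC1 2504th and LEU1 3295th. The measure takes in the strain difference, so genes with a similar fall rank high whatever they vary with inside a strain.

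The 5 genes outside the group nearest to LEU1 were VHR1, YAL037W, LAS17, YMR181C and PDH1, with differences of 0.11, 0.15, 0.15, 0.16 and 0.17. VHR1 encodes a transcription factor of biotin-responsive genes. It read 781, 634, 763 and 780.0 on the CDC34tm arrays and 1974, 2012, 2018 and 2004 on the WT arrays, a log2 fold change of -1.42 (limma adjusted p = 4.18e-06). LAS17 encodes an activator of actin assembly and PDH1 a mitochondrial protein of propionate metabolism, and they fell by 1.48 and 1.41 on the log2 scale.

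**Figure D4:**
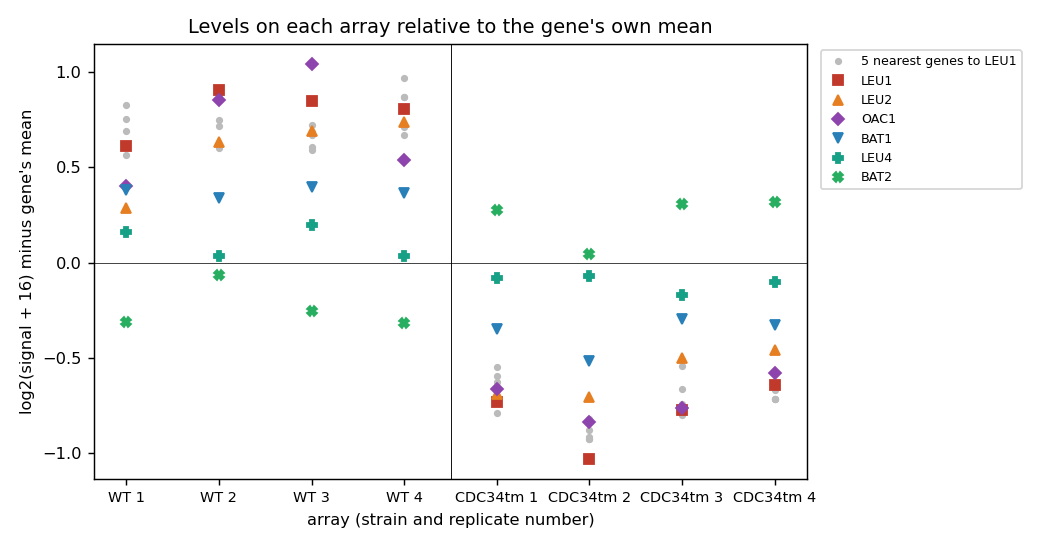
log2(signal + 16) minus the gene's mean over all arrays, by array, for LEU1, LEU2, OAC1, BAT1, LEU4 and BAT2 (coloured symbols) and for the 5 genes nearest to LEU1 (grey). All genes but BAT2 lie above 0 on the WT arrays and below 0 on the CDC34tm arrays. OAC1 is lower on WT replicates 1 and 4 than on WT replicates 2 and 3.

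Genes of valine and isoleucine synthesis, which share steps with the route to leucine apart from ILV1, changed little. Of the 5 genes, 3 were lower and 0 higher, with a median log2 fold change of -0.14, and none was lower by 1.5-fold. Among all probe sets tested, 19.7% were lower, 18.9% higher and 6.51% lower by at least 1.5-fold. ILV2 and ILV6, the catalytic and regulatory subunits of acetolactate synthase, fell by 0.19 and 0.24 (limma adjusted p = 0.00672 and 0.0176). ILV2 read 6572, 6583, 6699 and 7062 on the CDC34tm arrays and 7476, 7767, 7874 and 7504 on the WT arrays, without overlap. ILV3, the dihydroxyacid dehydratase gene, fell by 0.14 (adjusted p = 0.0299), a call that 9 of 19 other settings did not hold, among them 5 of the 8 that leave out 1 array and centring each array on its median (adjusted p = 0.161). ILV5, the reductoisomerase gene, had a log2 fold change of -0.01 (95% interval -0.10 to 0.08), and ILV1, the threonine deaminase gene of isoleucine synthesis, one of -0.11 (adjusted p = 0.106), which was called at -0.15 without WT replicate 4 (adjusted p = 0.0444). All these values are smaller in size than those of LEU1, LEU2, OAC1 and BAT1. They are similar in size to those of LEU4 (-0.21), LEU3 (-0.10) and LEU9 (-0.01). The difference between the lists was not tested.

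Genes for the uptake of branched-chain amino acids were mixed, with 2 lower and 1 higher of 5. The shares over all probe sets tested were 19.7% lower and 18.9% higher. AGP1, a permease of broad range, read 4439 ± 603 against 6714 ± 544 in WT (SD over 4 arrays) and fell by 0.60 on the log2 scale (limma adjusted p = 0.00114), and GNP1, a glutamine permease that also takes leucine, fell by 0.32 (adjusted p = 0.00167). TAT1, which carries valine, leucine and tyrosine, rose by 0.27 (adjusted p = 0.00356), with 5733 to 5977 on the CDC34tm arrays and 4594 to 5177 on the WT arrays. TAT1 was lower on WT replicates 1 and 4 than on WT replicates 2 and 3, and its rise was 0.19 against WT replicates 2 and 3 alone and 0.35 against WT replicates 1 and 4 alone. The fall of GNP1 was -0.39 against the former and -0.25 against the latter. BAP2, the leucine, valine and isoleucine permease, had a log2 fold change of -0.12 (95% interval -0.38 to 0.14), and its paralogue BAP3 one of 0.03 (-0.15 to 0.21). WT replicate 1 held the lowest BAP2 value, 3318 against 4499 to 4822 on the other WT arrays. Without it BAP2 was called at -0.24 (adjusted p = 0.0431).

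Of 8 genes tied to the breakdown of branched-chain keto acids and the esters made from their alcohols, 4 were lower and 1 higher. Over all probe sets tested, 19.7% were lower and 18.9% higher. ATF2, an alcohol acetyltransferase gene, fell 2.18-fold, from 1804 to 2672 on the WT arrays to 909 to 990 on the CDC34tm arrays (limma adjusted p = 8.68e-05). Its log2 fold change was -0.95 against WT replicates 2 and 3 alone and -1.31 against WT replicates 1 and 4 alone. Its homologue ATF1 fell by 0.35 on the log2 scale (adjusted p = 0.0117). THI3, whose protein resembles pyruvate decarboxylase and regulates thiamine genes, fell by 0.48 (adjusted p = 7.84e-04). PDC5, a minor pyruvate decarboxylase gene, fell by 0.49 (adjusted p = 0.0173). It moved with the WT cultures, and was not called against WT replicates 2 and 3 alone (-0.26, adjusted p = 0.0803) or without CDC34tm replicate 2 (-0.42, adjusted p = 0.0526).

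ARO9, an aromatic aminotransferase gene, rose from 28.7 to 49.0 on the WT arrays to 53.0 to 84.1 on the CDC34tm arrays (log2 fold change 0.51, limma adjusted p = 0.0316). These signals are low, at no less than 2.16 times background, and the call was lost in 6 of 19 other settings. ARO9 was 0.35 against WT replicates 2 and 3 alone (adjusted p = 0.146) and 0.67 against WT replicates 1 and 4 alone (adjusted p = 0.0146). ARO10, a decarboxylase gene of keto acid breakdown, lay at 14.2 to 33.6 on all arrays, close to background, so that no difference could be read. Neither PDC1, the main pyruvate decarboxylase gene, at -0.09 (adjusted p = 0.12), nor PDC6 at -0.11 (adjusted p = 0.623) was called. PDC1 was called after quantile normalization, at -0.09 (adjusted p = 0.00888). PDC6 was 0.17 against WT replicates 1 and 4 alone and -0.38 against WT replicates 2 and 3 alone (adjusted p = 0.343 and 0.0493).

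**Figure D5:**
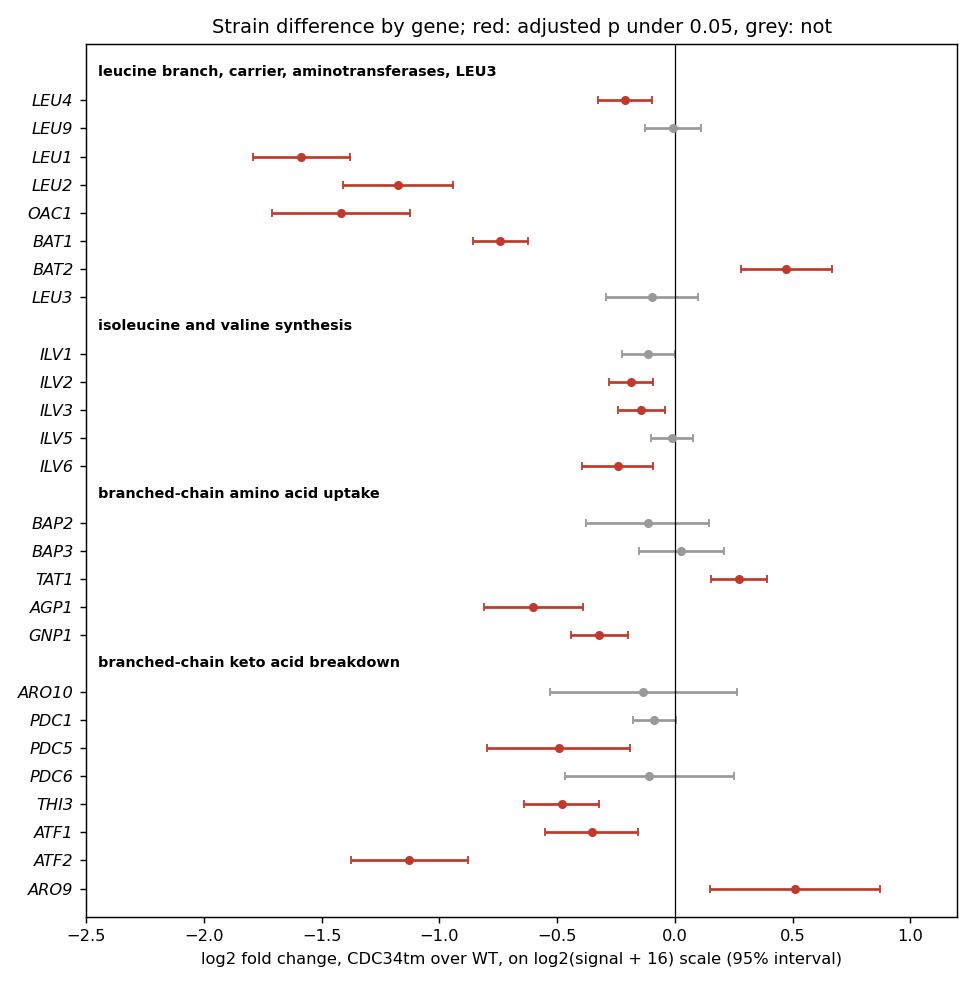
log2 fold change of CDC34tm over WT with its 95% interval for the 8 genes and for the genes of valine and isoleucine synthesis, uptake and keto acid breakdown, in red where the limma adjusted p is under 0.05 and in grey where it is not. LEU1, OAC1, LEU2 and ATF2 lie below -1, and the genes of valine and isoleucine synthesis between -0.24 and -0.01.

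Further genes tied to this pathway or to leucine use were also measured. GDH1, the NADP-dependent glutamate dehydrogenase gene, fell by 0.39 (limma adjusted p = 0.0164). The WT cultures split in GDH1, with 10593 and 10151 for replicates 1 and 4 and 8012 and 7863 for replicates 2 and 3. Against WT replicates 2 and 3 alone it was not called (-0.20, adjusted p = 0.0684). The mRNA of GCN4, the general activator of amino acid synthesis genes, had a log2 fold change of 0.01 (95% interval -0.08 to 0.11). This value does not show the activity of the Gcn4 protein, which the array does not measure. Of 29 other measured amino acid synthesis genes under Gcn4, 9 were lower and 0 higher, with a median of -0.09 and none lower by 1.5-fold. Among all probe sets tested, 19.7% were lower, 18.9% higher and 6.51% lower by at least 1.5-fold. The leucyl-tRNA synthetase genes NAM2 (mitochondrial) and CDC60 (cytosolic) fell by 0.34 and 0.15 (adjusted p = 0.00817 and 0.0199). CDC60 was not called in 3 of 19 other settings, namely after centring (-0.11, adjusted p = 0.111), without CDC34tm replicate 4 (-0.14, adjusted p = 0.067) and against WT replicates 1 and 4 alone (-0.11, adjusted p = 0.0948). LEU5, a mitochondrial carrier gene with a LEU name but a role in coenzyme A transport, had a log2 fold change of -0.01 (95% interval -0.32 to 0.29).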

How the data were processed

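Total RNA of 8 cultures was hybridised to 1 array each. The deposited values are linear intensities made with MAS5, per the submitters' processing notes, which name no version or scaling target. A trimmed mean of close to 1000 on each array, with 2% of probe sets trimmed from either end, shows that the values had been scaled, and this was kept. Genes were named from the platform table through RefSeq R64 gene IDs (5498 of 10928 probe sets). Background was the 95th percentile of the 1746 Schizosaccharomyces pombe probe sets (12.3 to 14.6), and the 5437 probe sets above it on at least 4 arrays were tested. log2(signal + 16) was fitted with limma 3.58.1 in R 4.3.3 (eBayes with trend), for the difference CDC34tm minus WT. Two-sided p-values were adjusted by Benjamini and Hochberg's method across the 5437 probe sets, with a threshold of 0.05. Fold changes on this scale understate those of dim genes. The number of arrays limits the precision. The steps were tested on simulated data. Genes, lists and tests were chosen with earlier results of these data known. Genes named in the text are the 8 genes, the pathway lists, a further list (GDH1, GCN4, LEU5, CDC60, NAM2), CDC34, PST1 and the 5 genes nearest to LEU1. The neighbours of LEU2 were chosen after their values were seen. PST1, named as a check of the labels, had a log2 fold change of -1.10 (limma adjusted p = 7.34e-05). It read 672 to 870 on the CDC34tm arrays and 1536 to 1991 on the WT arrays. Alternatives were other pseudocounts, scalings and filters, no trend, a replicate block, a correction for coding length, and arrays left out.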

Additional observations from a re-analysis of the deposited data

Results flagged for a closer look

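Of 66 sets of 4 values tested, 1 for each named gene and strain, 3 held a culture far from the other 3, where chance gives about 1 in 20. BAT2 read 1450.0 on CDC34tm replicate 2 against 1704 to 1753 on the other CDC34tm arrays. LEU5 read 329 on the same array against 473 to 506. GDH1 read 7909 on CDC34tm replicate 3 against 6530.2 to 6661.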

How the results depend on the processing

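LEU1, LEU2, LEU4, OAC1, BAT1 and BAT2 kept their direction and their call under all 19 alternatives, and 6 or 7 of the 8 genes were called in each. LEU3 was -0.23 against WT replicates 2 and 3 alone and 0.037 against WT replicates 1 and 4 alone. Genes near 0 turned their sign without being called. With centring, LEU9, ILV5 and LEU5 were 0.036, 0.033 and 0.031, and with the coding length correction LEU9, GCN4 and CDC34 were 0.028, -0.024 and -0.013. LEU5 was 0.028 after quantile normalization. Against WT replicates 1 and 4 alone, LEU9, ILV5, BAP3 and PDC6 were 0.049, 0.0051, -0.11 and 0.17. Against WT replicates 2 and 3 alone, LEU5 and CDC34 were 0.086 and -0.0034, and PDC6 was called at -0.38. With 1 array left out, the ranges were -0.045 to 0.013 for LEU9, -0.033 to 0.0098 for ILV5, -0.026 to 0.075 for BAP3, -0.20 to 0.0051 for PDC6, -0.0064 to 0.042 for GCN4, -0.078 to 0.12 for LEU5 and -0.032 to 0.055 for CDC34. They were -0.47 to -0.37 for LEU1 minus LEU2, -0.25 to -0.18 for LEU4 minus LEU9 and -1.28 to -1.19 for BAT1 minus BAT2, with an adjusted p of up to 0.0571. LEU4 minus LEU9 was -0.18 after quantile normalization (adjusted p = 0.0571). The cause of these changes was not tested. The replicate numbers were not taken as pairs, since same-numbered cultures deviated together with correlations of only -0.08 to 0.23. With the replicate block the fit called 1993 probe sets in place of 2100 and 6 of the 8 genes, ARO9 lost its call (adjusted p = 0.0549), and the within-array differences (LEU1 minus LEU2 -0.41, LEU4 minus LEU9 -0.20, BAT1 minus BAT2 -1.21) had an adjusted p of 0.125, the smallest that block allows. Against WT replicates 2 and 3 alone they were -0.42, -0.16 and -1.13, and against WT replicates 1 and 4 alone -0.40, -0.25 and -1.29, with an adjusted p of 0.0667, the smallest those numbers allow. Centring each array moved the split of calls to 1298 higher and 898 lower, from 1028 and 1072, quantile normalization gave 1166 and 985, and the coding length correction 853 and 1186.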
